A study of Mus musculus with 6 samples.

Results

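The retinoid genes described here are 10 genes that convert forms of vitamin A, or carry, sense or clear retinoic acid. They are Rdh10, Rdh12, Dhrs3, Aldh1a2, Aldh1a3, Crabp1, Crabp2, Rarb, Rarg and Cyp26b1. They were named as a list by their known roles, and each symbol was found once among the 34989 genes of the tables. The tissue was the handpad, the end of the mouse forelimb, at the embryonic stage E14.5. The labels give 3 wild-type libraries and 3 libraries of the genotype Grhl3KO, called knockout below, all of the strain C57BL/6 and all made from RNA of that tissue with a stranded mRNA kit. Grhl3 belongs to the grainyhead-like factors, which control genes of the skin barrier. The labels do not say which part of Grhl3 was deleted or whether a library came from 1 embryo or several, and p-values therefore reflect how much these libraries vary, which may be technical.

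Retinoic acid is a small signal made from vitamin A. Retinol dehydrogenases such as Rdh10 oxidise retinol to retinaldehyde, Dhrs3 turns retinaldehyde back into retinol, and the Aldh1a enzymes oxidise retinaldehyde to retinoic acid. Crabp1 and Crabp2 carry the acid inside the cell, the nuclear receptors Rarb and Rarg bind it and act on target genes, and Cyp26b1 breaks it down. In the limb the acid is known for its part in the loss of tissue between the digits. Compound mouse mutants of Rarb and Rarg keep webs between their digits. In skin and its appendages, retinoids are known to act on the differentiation of keratinocytes.

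Rdh12 was lower in the knockout, and Rarb and Rarg were read from different start regions. Sequences just before the starts of these 3 members are shown. They come from RefSeq (GRCm38.p6), whose table held windows for 7 of the 10 members, each from 250 bases before to 50 bases after a start. Each line gives the 100 bases before a start, 5′ to 3′ on the strand of the gene, and capitals mark a DR5 retinoic acid response element.
Rdh12, plus strand, chr12:79208813-79208912: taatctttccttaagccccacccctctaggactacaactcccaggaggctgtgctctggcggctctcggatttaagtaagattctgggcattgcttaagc
Rarb, minus strand, chr14:16575477-16575576: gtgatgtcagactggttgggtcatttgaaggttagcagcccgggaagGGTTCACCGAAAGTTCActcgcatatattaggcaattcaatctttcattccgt
Rarg, upstream start, minus strand, chr15:102257523-102257622: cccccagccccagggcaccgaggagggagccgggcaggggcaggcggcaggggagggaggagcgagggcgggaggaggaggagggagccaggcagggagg
Rarg, downstream start, minus strand, chr15:102246501-102246600: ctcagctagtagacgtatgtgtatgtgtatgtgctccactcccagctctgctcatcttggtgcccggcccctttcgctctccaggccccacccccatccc

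A DR5 element is a direct repeat, 5 bases apart, of the unit AGGTCA or of the variant GGGTCA, the variant AGTTCA or the variant GGTTCA, to which retinoic acid receptors are known to bind. Its match in Rarb ran from 53 to 37 bases before the start, and Rarb is a textbook target of its own ligand through such an element. Searched on both strands, this motif stood in 32 of 32851 mouse promoter windows of 300 bases, or 0.0974%. In the 10 windows of the 7 members, Rarb was the one gene with a match. The same units 2 bases apart (DR2) matched in 0 of the 10 windows, against 0.268% of all windows. AACCNGTT, the motif of grainyhead factors, matched in 0 of the 10, Rdh12 included, against 2.09% of all windows. Aldh1a3, Rdh10 and Crabp2 had no window and were not searched. The Cyp26b1 window lies at its upstream start, which held 5.33% to 10.9% of the TPM of that gene. A window without a match lacks these letters there and says nothing about the factor elsewhere.

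The libraries held 38052692 to 56037639 estimated counts. Wild-type replicate 1 stood apart in 2 ways: its counts came from shorter transcripts on average (3148 bases, against 3347 to 3625 in the other 5 libraries), and it was the one wild-type library without Y-linked expression. The summed Y-linked level was 5.57, 283 and 327 CPM (counts scaled to the TMM-adjusted library total) in wild-type and 3.43, 4.11 and 4.49 CPM in knockout libraries. Embryo sex and genotype are therefore partly confounded. Grhl3 measured 14.3, 45.7 and 18.5 CPM in wild-type and 3.11, 2.86 and 2.95 CPM in knockout libraries, lower in every knockout library than in any wild-type one (log2 fold change -3.14, SE 0.41, edgeR quasi-likelihood test, adjusted p = 0.0221). Over 17 other settings Grhl3 ran from -3.68 to -2.22, and 11 of them called it. It was not called without wild-type replicate 3 or without any 1 of the knockout libraries (edgeR adjusted p-values of 0.0759 to 0.162). Markers of limb connective tissue (summed 4980 to 7840 CPM), cartilage (2280 to 5420 CPM) and epithelium (1420 to 3400 CPM) were present in every library, as a handpad should have.

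Of the 10 members, Aldh1a3 rose and Rdh12 fell in the knockout, and the other 8 did not pass the test. A gene was called when its p-value from the edgeR quasi-likelihood test, adjusted over all 16938 genes tested, was under 0.05. That threshold called 0.431% of all genes tested, 0.348% as higher and 0.0827% as lower. All 10 members passed the filter on low counts. The median log2 fold change of the 10 was -0.01, against -0.004 over all genes, with 5 positive and 5 negative. At an unadjusted p under 0.05 the same count was 2 of 10 members, against 7.22% of all genes. The 2 groups were fully separated in 2 of 10 members and in 12.9% of all genes. The list was drawn up with results of these libraries known, so these counts describe it and support nothing further.

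**Figure D1:**
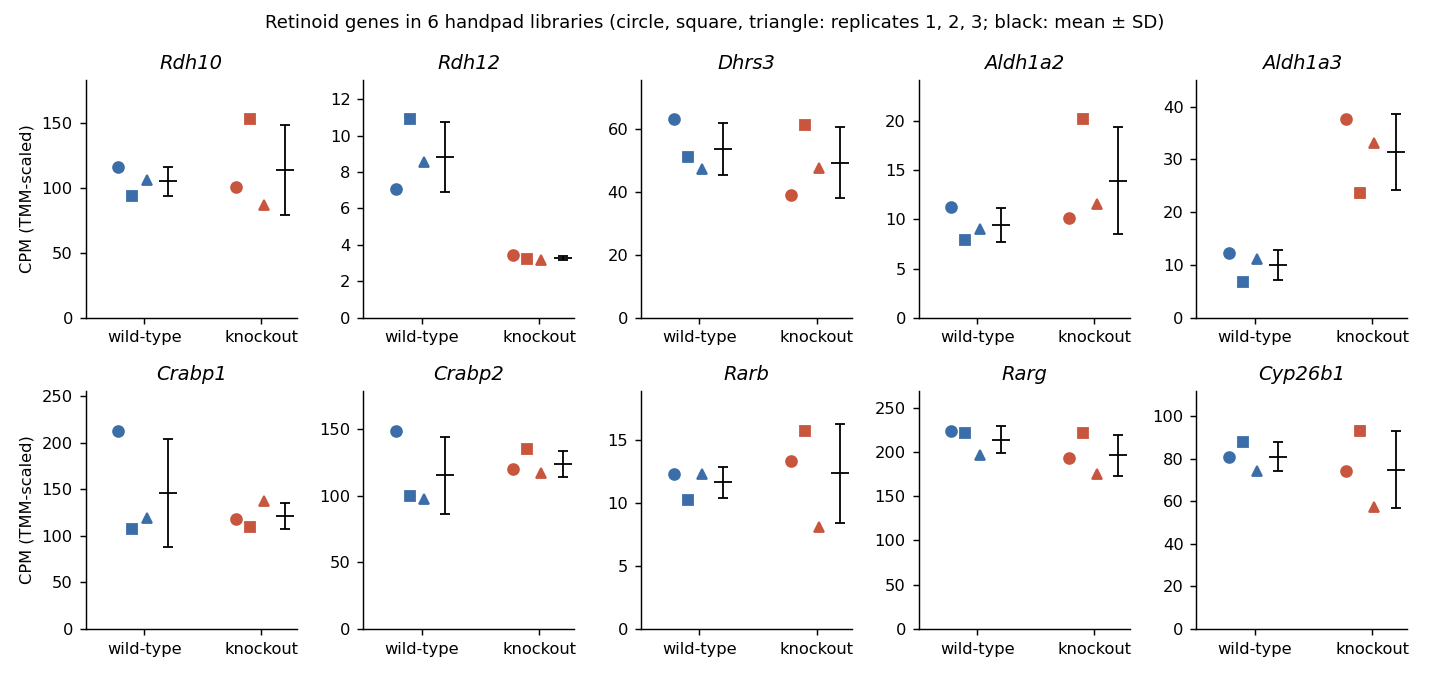
Level of each of the 10 genes in CPM (TMM-scaled, linear axes from 0) in 3 wild-type (blue) and 3 knockout (red) libraries, with symbols for replicates 1 to 3 and black marks for the mean ± SD. Aldh1a3 and Rdh12 are the panels in which the groups do not overlap.

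Aldh1a3 makes retinoic acid from retinaldehyde and is known from epithelia of the eye, nose and skin appendages. The gene (ENSMUSG00000015134.15) lies on the minus strand of chromosome 7, from 66390890 to 66427517 in mm10. It measured 12.2, 6.84 and 11.1 CPM in wild-type and 37.6, 23.6 and 33.1 CPM in knockout libraries. Each knockout library was above every wild-type library, with wild-type replicate 2 the lowest of its group and knockout replicate 2 the lowest of its own. The mean went from 10 ± 2.82 to 31.5 ± 7.14 CPM (SD, n = 3 per group), a ratio of 3.13. The log2 fold change was 1.65 (SE 0.24, 95% interval 1.09 to 2.21, edgeR quasi-likelihood adjusted p = 0.034).

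The rise of Aldh1a3 was present in both transcripts that held most of its signal. Aldh1a3-201, the transcript of 3443 bases, measured 3.05, 2.24 and 3.56 TPM (abundance scaled to the library total and corrected for transcript length) in the wild-type and 11.2, 7.03 and 9.15 TPM in the knockout libraries. Aldh1a3-203, of 1496 bases, measured 1.57, 0.959 and 1.59 TPM against 4.39, 2.3 and 3.83 TPM. The groups did not overlap in either transcript. Across all 6 libraries the longer one held 70.4% of the TPM of the gene on average and the shorter one 29.4%.

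Rdh12 is a member of the retinol dehydrogenase family best known from photoreceptors, where it reduces retinaldehyde. The gene (ENSMUSG00000021123.12) lies on the plus strand of chromosome 12, from 79208914 to 79222665. It measured 7.08, 10.9 and 8.55 CPM in wild-type and 3.43, 3.22 and 3.18 CPM in knockout libraries. The knockout values lay close together, and each was below the lowest wild-type value, that of replicate 1. The mean went from 8.85 ± 1.94 to 3.28 ± 0.132 CPM (SD, n = 3), 2.70 times higher in the wild-type. The log2 fold change was -1.43 (SE 0.19, 95% interval -1.87 to -1.0, edgeR quasi-likelihood adjusted p = 0.0221).

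On the TPM scale the Rdh12 groups only just separated. The gene had 4.12, 9.65 and 6.82 TPM in the wild-type and 4.10, 2.35 and 2.0 TPM in the knockout libraries. In knockout replicate 1, 1.79 of the 4.10 TPM were assigned to Rdh12-203, a transcript of 558 bases to which the other knockout libraries gave 0.0823 and 0 TPM. Rdh12-201, the main coding transcript, had 0.8, 6.35 and 5.06 TPM in the wild-type and 1.75, 1.9 and 1.5 TPM in the knockout libraries, and here wild-type replicate 1 lay below all knockout libraries. That library instead had 2.14 TPM of Rdh12-202, a coding transcript of 1624 bases that was at or near 0 in the other 5. The retained-intron transcript Rdh12-204 was at 1.17, 1.86 and 1.4 TPM in the wild-type and 0.359, 0.359 and 0.499 TPM in the knockout libraries, with no overlap. With the effective transcript lengths as offsets, Rdh12 was no longer called (log2 fold change -1.20, edgeR adjusted p = 0.343), nor was Aldh1a3 (1.6, adjusted p = 0.0732).

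**Figure D2:**
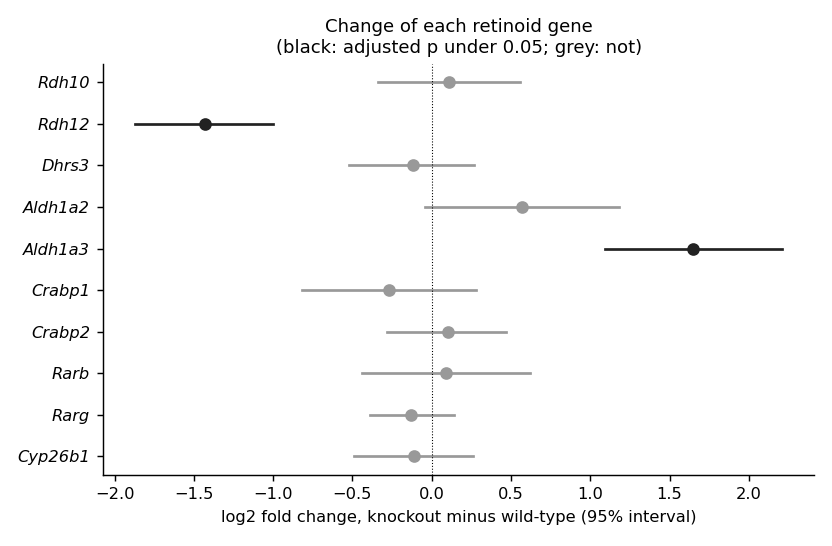
Log2 fold change of each gene, knockout minus wild-type, with its 95% interval from the edgeR quasi-likelihood fit. The intervals of Aldh1a3 (1.09 to 2.21) and Rdh12 (-1.87 to -1.0) lie away from 0, and those of the other 8 genes include it.

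Leaving out single libraries ended either call in most cases. The number of all genes called, 73 as reported, also changed. It was 206, 45 and 10 without wild-type replicate 1, 2 and 3, and 17, 64 and 22 without knockout replicate 1, 2 and 3. Aldh1a3 stayed called without wild-type replicate 1 (log2 fold change 1.82, adjusted p = 0.0164) and without knockout replicate 2 (1.82, adjusted p = 0.0256, edgeR). It was not called without wild-type replicate 2 (adjusted p = 0.0583) or 3 (0.184), or without knockout replicate 1 (0.183) or 3 (0.133), at 1.44 to 1.73. Rdh12 stayed called without wild-type replicate 1 (-1.57, adjusted p = 0.00534, edgeR). With that library left out, the wild-type libraries all have Y-linked expression and the knockout libraries none, so sex and genotype cannot be told apart. It was not called when any other library was left out, at fold changes of -1.47 to -1.25 and adjusted p-values of 0.0591 to 0.144 (edgeR). With Y-linked expression as a covariate the values were 1.34 for Aldh1a3 and -1.09 for Rdh12, and neither gene was called. Only wild-type replicate 1 had a Y-linked level near that of the knockout libraries. The genotype term of this fit therefore rests largely on that library and gives no firm estimate adjusted for sex. The authors' deposited table lists 941 genes, with p-values up to 0.0506 from a likelihood ratio test of the same libraries. It holds these 2 members and no other, with log2 fold changes of 1.65 (FDR 3.23e-07) for Aldh1a3 and -1.44 (FDR 8.44e-07) for Rdh12. The edgeR likelihood ratio test run here gave adjusted p-values of 2.38e-07 and 1.02e-06, far below those of the quasi-likelihood test.

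**Figure D3:**
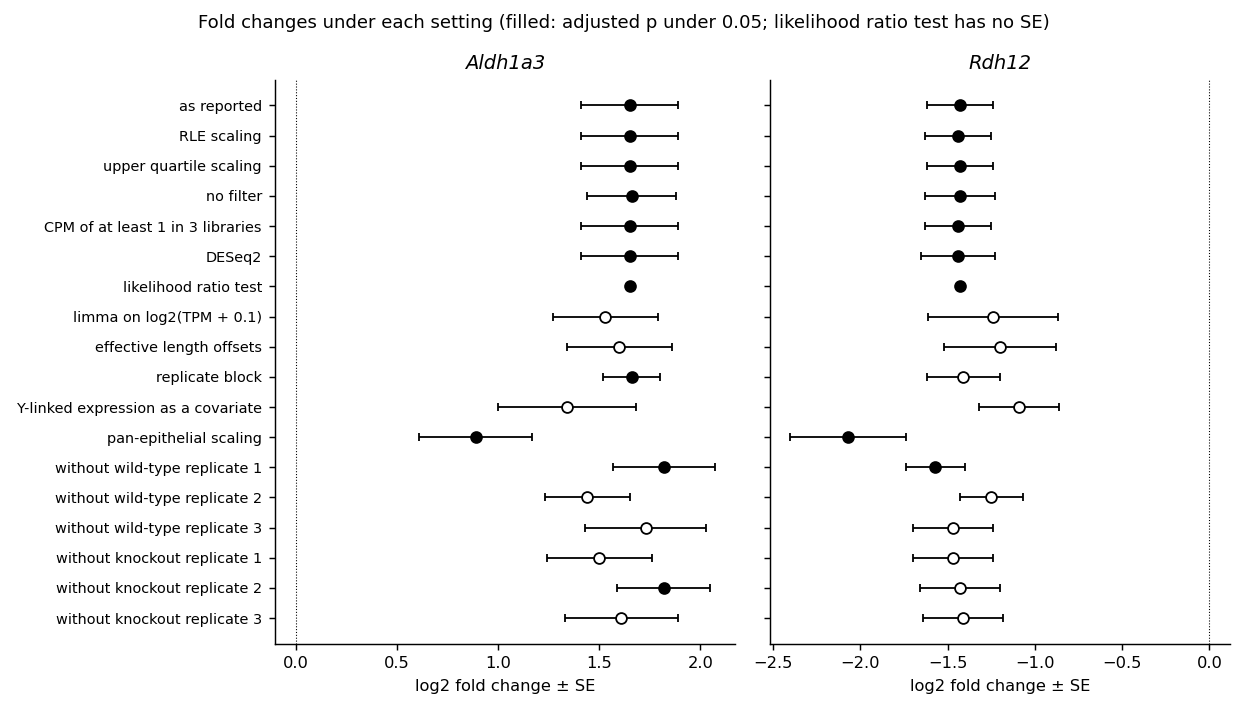
Log2 fold changes (± SE) of Aldh1a3 and Rdh12 as reported and under 17 other settings, with filled points where the adjusted p was under 0.05. The signs hold throughout, from 0.89 to 1.82 for Aldh1a3 and from -2.07 to -1.09 for Rdh12, while 10 and 8 of the 17 settings call the gene.

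Marker levels of surface layers differed between the same libraries, and their part in these 2 results was not tested. The 12 pan-epithelial markers summed to 1420, 2290 and 1450 CPM in wild-type and 3400, 2520 and 3250 CPM in knockout libraries, and 1 of the 12, Cldn7, was called higher. In 7 of the 12 the unadjusted p was under 0.05 with a positive change, while Esrp1, Esrp2, Trp63, Perp and Grhl2 overlapped between the groups. The 8 periderm markers, Grhl3 among them, summed to 129, 223 and 130 CPM against 1020, 507 and 785 CPM, with 6 called higher and 1, Grhl3, called lower. The other periderm marker, Krt4, was at 37.6, 83.4 and 46.5 CPM against 22.4, 13.1 and 14.2 CPM (log2 fold change -1.75, edgeR adjusted p = 0.0785). The 6 markers of the spinous layer, which lies above the basal cells, summed to 620, 1090 and 719 CPM against 1050, 504 and 1150 CPM, with 0 called (edgeR), 1 at an unadjusted p under 0.05 and a median of 0.01. No marker of these 3 lists was at 0 in all libraries. In bulk tissue, fewer cells of a type and less RNA per cell cannot be told apart.

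Set against the pan-epithelial sum, the groups did not overlap for Aldh1a3. For Rdh12 they could not overlap, since it was lower and the sum higher in every knockout library than in any wild-type one. Most of that sum came from 2 keratins, so it weights them over the other markers. Krt5 was at 638, 1070 and 578 CPM in wild-type and 1620, 1210 and 1600 CPM in knockout libraries. Krt14 was at 281, 425 and 269 CPM against 885, 597 and 859 CPM. Per 1000 CPM of that sum, Aldh1a3 had 8.59, 2.99 and 7.66 CPM in wild-type and 11.1, 9.37 and 10.2 CPM in knockout libraries. Rdh12 had 4.99, 4.76 and 5.90 CPM against 1.01, 1.28 and 0.978 CPM. Per 1000 CPM of the periderm sum, Aldh1a3 overlapped between the groups (94.6, 30.7 and 85.4 against 36.9, 46.5 and 42.2 CPM). With libraries scaled on the pan-epithelial markers the log2 fold change of Aldh1a3 was 0.89 (adjusted p = 0.0171, edgeR). That of Rdh12 was -2.07 (adjusted p = 9.47e-08, edgeR). The median of all genes was at -0.686 there, so the larger fall of Rdh12 is no separate result.

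**Figure D4:**
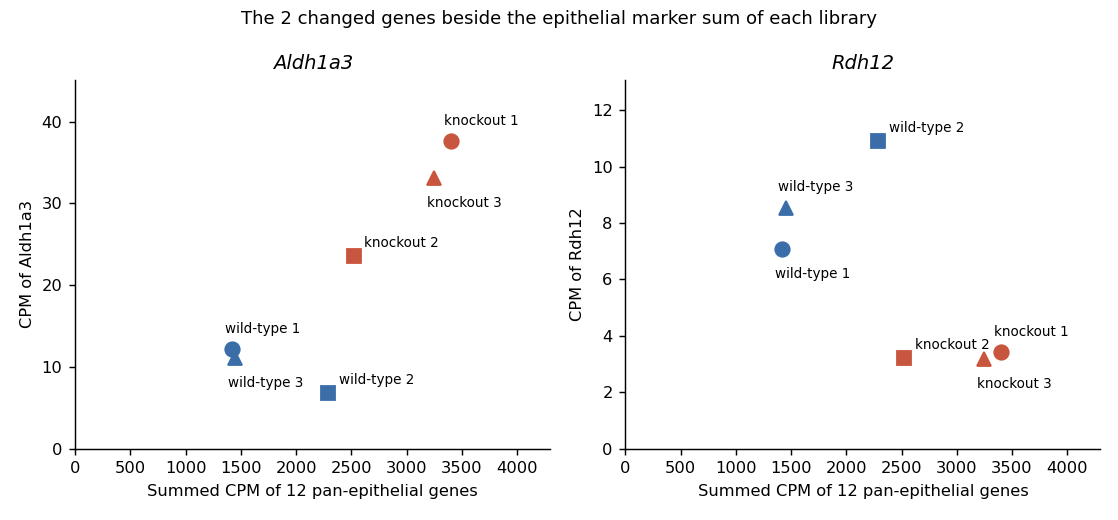
CPM of Aldh1a3 and of Rdh12 in each library against the summed CPM of 12 pan-epithelial marker genes, with wild-type in blue and knockout in red (linear axes from 0). The marker sum is 1420 to 2290 CPM in the wild-type and 2520 to 3400 CPM in the knockout libraries, so the groups are apart on both axes. Most of the sum comes from Krt5 and Krt14.

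The other enzymes that set the supply of retinaldehyde and retinoic acid did not pass the test. Rdh10, whose loss in mice is known to leave webs between the digits, measured 116, 93.5 and 106 CPM in wild-type and 101, 153 and 87.2 CPM in knockout libraries. Knockout replicate 2 was the highest and knockout replicate 3 the lowest of all 6, so the groups overlapped (log2 fold change 0.11, 95% interval -0.34 to 0.56, edgeR adjusted p = 0.987). Dhrs3 measured 62.9, 50.8 and 47.1 CPM against 39.0, 61.1 and 47.4 CPM, with overlapping groups (-0.12, 95% interval -0.52 to 0.27, adjusted p = 0.979).

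Aldh1a2 is the main retinoic acid synthase of embryonic mesenchyme, the tissue between the digits included. It measured 11.3, 7.88 and 9.01 CPM in wild-type and 10.1, 20.2 and 11.6 CPM in knockout libraries. The high mean of the knockout came from replicate 2, and the groups overlapped (log2 fold change 0.57, SE 0.27, 95% interval -0.04 to 1.18, edgeR adjusted p = 0.727). None of 17 other settings called the gene, and its fold change ran from -0.11 with pan-epithelial scaling to 0.76 without knockout replicate 1. Per length, Aldh1a3 was below Aldh1a2 in 3 of 3 wild-type libraries (4.62, 3.20 and 5.15 TPM against 5.49, 4.88 and 5.51 TPM). In the knockout it was above Aldh1a2 in replicates 1 and 3 (15.6 and 13.1 TPM against 5.62 and 6.03 TPM) and below it in replicate 2 (9.33 against 11 TPM).

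The 2 carriers were the most abundant members per length. Crabp1 measured 213, 107 and 119 CPM in wild-type and 118, 109 and 137 CPM in knockout libraries. Wild-type replicate 1 stood far above the other 5, and the log2 fold change of -0.27 (95% interval -0.82 to 0.28, edgeR adjusted p = 0.943) became 0.11 without it. With Y-linked expression as a covariate it was -0.87 and not called, in a fit whose genotype term rests largely on wild-type replicate 1. With pan-epithelial scaling it was -1.02 (adjusted p = 0.0041, edgeR), where all genes had a median of -0.686. Crabp2, which is known to hand the acid to its receptors, measured 149, 100 and 97.5 CPM against 120, 135 and 117 CPM. Here too wild-type replicate 1 was the highest library, and the fold change was 0.10 (95% interval -0.28 to 0.47, adjusted p = 0.987) with it and 0.32 without it.

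The receptors did not pass the test at the level of the gene. Rarb measured 12.3, 10.2 and 12.3 CPM in wild-type and 13.3, 15.7 and 8.04 CPM in knockout libraries (log2 fold change 0.09, 95% interval -0.44 to 0.62, edgeR adjusted p = 0.992). Rarg measured 224, 221 and 197 CPM against 193, 221 and 175 CPM (-0.13, 95% interval -0.39 to 0.14, adjusted p = 0.943). In both, knockout replicate 3 was the lowest of the 6 libraries. Rarb overlaps Top2b on the opposite strand, and the strand setting of the counting is not given in the sources used here, so reads of the 2 genes may not be fully separated.

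The 2 receptor genes differed in the start regions their transcripts came from. Transcripts of Rarb that start within 2000 bases of each other near the window shown above, with its DR5 element, held 96.9%, 94.1% and 97.3% of the TPM of the gene in the wild-type and 94.6%, 98.1% and 100% in the knockout libraries. The upstream start held the rest, 0 to 0.591 TPM. Of the Rarb TPM, 55.4% on average was assigned to Rarb-202, a transcript of 1052 bases annotated for nonsense-mediated decay. The longer coding transcripts Rarb-201 and Rarb-207 held 21.5% and 18.7%. TPM is corrected for length, and the share of Rarb-202 in the estimated counts was smaller. It had 87.69, 162.9 and 119 of 465, 508 and 487 counts in the wild-type libraries. In the knockout libraries it had 200.1, 158.4 and 117.2 of 657, 746 and 442 counts. Rarg was divided between both of its windows: the upstream start held 42.5%, 60% and 54.9% of its TPM in the wild-type and 58.8%, 50.3% and 49.9% in the knockout libraries. These shares overlapped between the groups, at 52.4% ± 9.03 and 53% ± 5.03 (SD, n = 3).

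**Figure D5:**
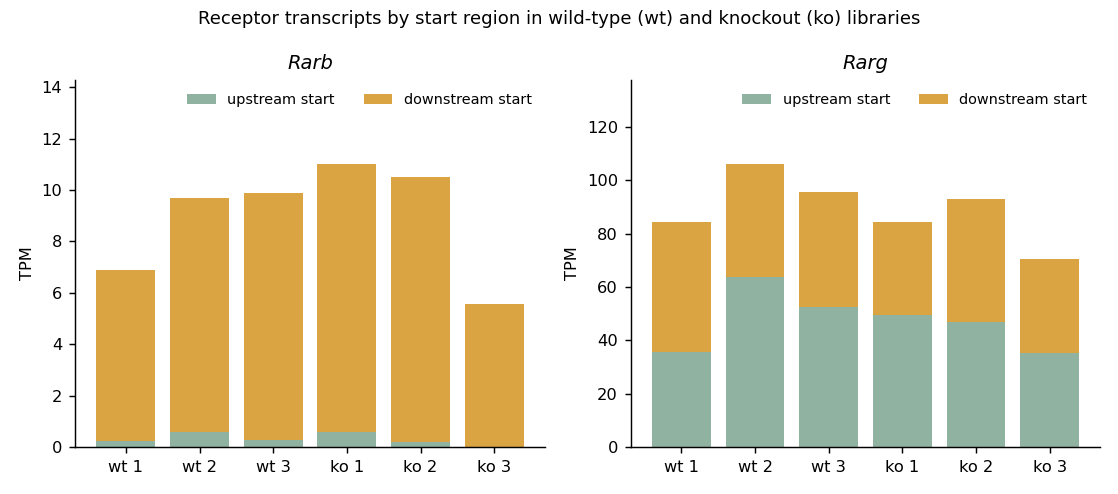
TPM of Rarb and Rarg in each library, divided by the start region of the transcripts (upstream in green, downstream in ochre, stacked bars from 0). Rarb came almost wholly from its downstream start, at 94.1% to 100%, and Rarg from both, with 42.5% to 60% upstream.

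Cyp26b1, the hydroxylase that clears retinoic acid and whose loss is known to shorten the limbs, measured 80.6, 87.9 and 74.1 CPM in wild-type and 74.2, 93.1 and 57.1 CPM in knockout libraries. The groups overlapped, with the highest and the lowest value both in the knockout (log2 fold change -0.11, 95% interval -0.49 to 0.26, edgeR adjusted p = 0.981). Transcripts from its 2 downstream coding models, Cyp26b1-205 and Cyp26b1-204, held 70.4% and 22.9% of its TPM on average.

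The spread within the knockout was shared by several members. Knockout replicate 2 was the highest of its group for 7 of the 10 genes (Rdh10, Dhrs3, Aldh1a2, Crabp2, Rarb, Rarg and Cyp26b1), and knockout replicate 3 was the lowest for 6. In the wild-type, replicate 1 was the highest for 7 genes. How often these libraries hold such ranks over all genes was not counted, so the ranks describe these members only. Markers of the tissue between the digits and of cartilage varied between the same knockout libraries. The 8 interdigital markers, Msx1 and Bmp7 among them, summed to 410, 496 and 357 CPM in knockout replicates 1, 2 and 3, and the 8 cartilage markers to 3630, 3470 and 2280 CPM. Their part in the spread of the members was not tested.

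Per length, the members kept much the same order of level in both genotypes. In the wild-type the means were 389 ± 79.9 TPM for Crabp1, 235 ± 17.7 for Crabp2, 95.3 ± 10.8 for Rarg, 70.4 ± 3.56 for Dhrs3, 37.4 ± 3.86 for Rdh10 and 21.8 ± 3.48 for Cyp26b1 (SD, n = 3), and no 2 neighbours in that order overlapped. Below these came Rarb (8.82 ± 1.69 TPM), Rdh12 (6.86 ± 2.77), Aldh1a2 (5.29 ± 0.355) and Aldh1a3 (4.32 ± 1.01), each of which overlapped the next. In the knockout Aldh1a3 (12.7 ± 3.17 TPM) came next after Cyp26b1 (19.1 ± 4.92), with overlapping libraries, and Rdh12 (2.82 ± 1.13) was below all other members in every library. The knockout order otherwise began with Crabp1 (317 ± 26.7 TPM) and Crabp2 (243 ± 24.2) as before.

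Other genes of the pathway were listed from textbook roles, and none was called with the edgeR quasi-likelihood test. Of 68 symbols 67 were found and 58 tested, with a median log2 fold change of 0.03 against -0.004 over all genes. Before adjustment, 5 had a p under 0.05 with a positive change and 2 with a negative one, against 7.22% of all genes in either direction. Full separation of the groups was seen in 12 of the 58, and in 12.9% of all genes. DESeq2 called 2 of them, Meis1 and Meis2, and the likelihood ratio test of edgeR called 2, Meis2 and Ttr. Meis2, a homeodomain factor that retinoic acid is known to induce in the proximal limb, measured 36.4, 42.9 and 41.7 CPM in wild-type and 53.2, 57.2 and 57.2 CPM in knockout libraries (log2 fold change 0.47, SE 0.10, edgeR quasi-likelihood adjusted p = 0.128). Its relative Meis1 measured 10.8, 14.3 and 13.2 CPM against 17.4, 18.9 and 19.7 CPM (0.55, SE 0.13, adjusted p = 0.219). In both, every knockout library was above every wild-type library. Both belong to a list of 12 textbook retinoic acid targets, of which 8 were tested and 0 called. The median of that list was 0.20, with 5 positive and 3 negative. Tbx5 (128, 143 and 127 CPM against 123, 113 and 104 CPM) and Rarres1 (log2 fold change -0.30) were fully separated in the other direction.

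Among the other dehydrogenases, 17 of 19 listed genes were tested and 0 called, with a median of 0.04. Sdr16c6, a relative of epidermal retinol dehydrogenase, measured 4.52, 11 and 11 CPM in wild-type and 4.51, 0.948 and 2.15 CPM in knockout libraries (log2 fold change -1.81, SE 0.54, edgeR adjusted p = 0.375). Dhrs7 was at 8.45 ± 0.182 and 11.1 ± 0.765 CPM (SD, n = 3), with a fold change of 0.40 (adjusted p = 0.397). Of the 5 other retinaldehyde oxidases, Aldh1a7 was at 2.20 ± 0.585 and 1.43 ± 0.419 CPM and Aox3 at 1.05 ± 0.133 and 1.47 ± 0.190 CPM (SD, n = 3), and neither passed. Aldh1a7 is a close relative of Aldh1a1, and how their reads were divided is uncertain.

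Uptake and storage genes numbered 9 tested, with a median of -0.03. Stra6, the membrane receptor that takes up retinol, was at 20.8 ± 1.71 and 24.7 ± 6.72 CPM (SD, n = 3). Ttr, which carries retinol-binding protein in blood, had 0.185, 0.140 and 0.101 CPM in wild-type and 0.670, 1.45 and 0.218 CPM in knockout libraries (log2 fold change 2.43, edgeR adjusted p = 0.348). The 6 liver markers, Ttr among them, summed to 3.01 to 3.86 CPM in wild-type and to 32.8, 76.6 and 5.6 CPM in knockout libraries, and their part in the Ttr values was not tested. The hydroxylases Cyp26c1 and Cyp26a1 were at 0.284 ± 0.0865 and 2.99 ± 0.193 CPM in wild-type and at 0.390 ± 0.0666 and 3.64 ± 1.14 CPM in the knockout (SD, n = 3).

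Among 7 other receptors and carriers the median was 0.02. Fabp5, a fatty acid carrier of epidermis that can also bind retinoic acid, measured 304, 223 and 210 CPM in wild-type and 383, 276 and 364 CPM in knockout libraries (log2 fold change 0.47, SE 0.18, edgeR adjusted p = 0.562), with overlapping groups. Rorb, an orphan receptor, was at 0.881 ± 0.338 and 0.586 ± 0.116 CPM (SD, n = 3). Of the 9 receptor coregulators tested, the smallest p-values were those of Ncoa2 (-0.15, adjusted p = 0.938) and Rere (-0.09, adjusted p = 0.957, edgeR).

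The genes whose profile over the 6 libraries was nearest to that of the called members were found among 13442 genes whose log2 CPM averaged at least 1, by the root mean square difference of centred log2 CPM. For Aldh1a3 they were Klk11, a kallikrein protease (difference 0.117), Ahnak2, a large scaffold protein (0.218), and Egr2, an early response factor (0.225). Klk11 measured 2.17, 1.24 and 1.80 CPM in wild-type and 6.23, 3.39 and 5.39 CPM in knockout libraries. For Rdh12 they were Tmem254a (0.141), Pla2g4f, a phospholipase (0.221), and Rhbg, an ammonium transporter (0.222). Rhbg measured 6.66, 9.53 and 7.39 CPM against 3.33, 2.19 and 3.64 CPM. Tmem254a has near-identical copies, so its values are uncertain.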

How the data were processed

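Handpad mRNA was measured in 3 wild-type and 3 Grhl3 knockout libraries. Per the submitters' processing notes the authors used FastQC and kallisto with build mm10; no source used here names the kallisto version or the transcript set. The deposited tables, per the file headers, give an estimated count, a TPM value, a length and an effective length for each of 111462 transcripts. The authors' deposited comparison table gives log2 fold changes, log2 CPM, a likelihood ratio score, p-values and FDR.

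Transcripts were matched to GENCODE M21 (same build) by unversioned identifier; 110203 matched, and the others held 0.504% to 0.566% of counts. Estimated counts were summed per gene and rounded. edgeR 4.0.16 (R 4.3.3) was used with TMM scaling, filterByExpr (minimum count 10, total 15; 16938 genes), the quasi-likelihood test with genotype as the only term, and Benjamini-Hochberg adjustment over all genes tested, with a threshold of 0.05. SE is the fold change over the square root of its F statistic. On simulated counts for these 16938 genes, the script recovered 21.3% of genes changed 1.5-fold, 59.3% at 2-fold, 94.7% at 4-fold and 96.7% at 8-fold; 7.9% of its calls were false. DESeq2 1.42.0, limma 3.58.1 and other alternatives are in the closing section.

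Members, lists and tests were chosen with earlier results of these data known. Named genes are the 10 members, Grhl3 and the 2 genes with the smallest p in each other pathway list. The 3 genes nearest in profile to each called member are named too. Of the transcripts with at least 10% of a gene's TPM, not all are named. Tbx5, Rarres1, Top2b, Rdh12-202 and the markers stand beside results they touch. Reads carry no molecular identifiers, so depth limits are counting limits only.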

Additional observations from a re-analysis of the deposited data

How the results depend on the processing

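The fold changes of Aldh1a3 and Rdh12 kept their signs under all 17 alternatives, and Aldh1a3 was called in 10 and Rdh12 in 8. As reported, 2 members, 73 genes in all and 0 other pathway genes were called. Members called numbered 0 with limma on log2(TPM + 0.1), with effective length offsets and with Y-linked expression as a covariate, 8 with pan-epithelial scaling, and 0 to 2 with single libraries left out. With the replicate block 1 member was called, and Rdh12 missed the threshold (log2 fold change -1.41, adjusted p = 0.0808). The equal replicate numbers are not stated to mark a shared litter or day, and deviations of same-numbered libraries correlated at -0.244, -0.092 and -0.162. All genes called numbered 118 with no filter, 299 with DESeq2, 260 with the likelihood ratio test, 35 with limma, 45 with effective length offsets, 47 with the replicate block, 10833 with pan-epithelial scaling, and 10 to 206 with single libraries left out. Other pathway genes called numbered 2 with DESeq2, 2 with the likelihood ratio test and 38 with pan-epithelial scaling. Pan-epithelial scaling lowered the median of all genes to -0.686, which lowers every member: Rdh10 to -0.57, Aldh1a2 to -0.11, Crabp2 to -0.61 and Rarb to -0.60, of which Rdh10 and Crabp2 were called. It also called Dhrs3 (-0.80), Crabp1 (-1.02), Rarg (-0.80) and Cyp26b1 (-0.77). Signs of members that were not called also turned with limma (Rdh10 -0.05, Rarb -0.01) and with the Y-linked covariate (Rdh10 -0.04, Crabp2 -0.31, Rarb -0.01). With single libraries left out, Rdh10 ran from -0.16 to 0.27, Dhrs3 from -0.31 to 0.02, Crabp1 from -0.45 to 0.11, Crabp2 from -0.01 to 0.32, Rarb from -0.12 to 0.33 and Cyp26b1 from -0.31 to 0.05. The Y-linked covariate moved Crabp1 to -0.87, which was not called. The genotype term of that fit rests largely on wild-type replicate 1, where Crabp1 was at 213 CPM, against 107 and 119 CPM in replicates 2 and 3. The cause of the differences between settings was not tested. The members had at least 153 estimated counts in every library.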
